A study of Homo sapiens with 6 samples.

Results

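The 8 genes described here, BBC3, PMAIP1, BCL2L11, BMF, BID, BAD, BIK and HRK, encode pro-apoptotic BH3-only proteins of the BCL2 family and were taken by symbol. The rule uses no measured value, but the group was chosen with earlier results of these data known. All 8 had a row among the 26364 genes of the authors' deposited table. The cells were REH, a human cell line that was established from B-cell precursor acute lymphoblastic leukaemia. Treatment with S3I-201, a compound aimed at the transcription factor STAT3, lasted 6 h at 50 µM, and DMSO served as the control. There were 3 libraries per group, from independent experiments according to the design text of the series, and no other cell line, dose or time was used. The deposited table pools these 6 libraries, so that a gene has a mean normalized count over both groups, the log2 fold change between them and its p-value, raw and adjusted. No value per library was analysed here. Positive fold changes were read as higher with S3I-201. Which group was the reference is not stated in the table, and all directions given below would be reversed if it was S3I-201.

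BH3-only proteins carry a single short helix, the BH3 domain, with which they bind other BCL2 family members at the mitochondrial outer membrane. They hold the anti-apoptotic proteins BCL2, BCL-XL and MCL1, or engage the effectors BAX and BAK directly, and the effectors then open the membrane for cytochrome c. Each BH3-only gene answers to its own set of signals. PUMA and NOXA, the products of BBC3 and PMAIP1, are classical targets of p53 and are also induced by stress through ATF4 and CHOP. BIM and BMF are linked to growth factor withdrawal, FOXO factors and glucocorticoids, while BID and BAD are controlled mainly on the protein, by cleavage and by phosphorylation.

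Windows around the start sites of PMAIP1 and BBC3, which rose, and of BCL2L11, which did not pass, are shown to place the fold changes beside the regulatory sequence. Each runs from 250 bases before to 50 bases after a start site annotated by RefSeq (GRCh38.p14) and is written 5′ to 3′ on the strand of the gene. Capitals mark GC boxes (GGGCGG) and the half-site of the cAMP response element (TGACGT) in PMAIP1, the AP-1 site (TGANTCA) in BBC3, and GC boxes and the FOXO element (GTAAACA) in BCL2L11, each searched on both strands.
PMAIP1, chr18:59899746-59900045, plus strand: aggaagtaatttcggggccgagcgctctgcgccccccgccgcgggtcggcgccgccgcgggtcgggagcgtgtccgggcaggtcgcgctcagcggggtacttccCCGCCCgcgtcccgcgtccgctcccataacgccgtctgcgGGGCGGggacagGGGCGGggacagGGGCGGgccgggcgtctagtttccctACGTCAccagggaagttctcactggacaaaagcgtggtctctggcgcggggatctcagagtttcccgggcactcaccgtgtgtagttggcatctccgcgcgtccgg
BBC3, chr19:47232618-47232917, minus strand: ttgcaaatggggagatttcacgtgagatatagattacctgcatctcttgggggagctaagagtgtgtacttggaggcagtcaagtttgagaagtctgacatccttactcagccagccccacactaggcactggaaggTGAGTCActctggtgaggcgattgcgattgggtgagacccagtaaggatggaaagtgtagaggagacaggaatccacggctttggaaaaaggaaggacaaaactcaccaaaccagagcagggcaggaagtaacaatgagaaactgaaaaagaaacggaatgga
BCL2L11, chr2:111120664-111120963, plus strand: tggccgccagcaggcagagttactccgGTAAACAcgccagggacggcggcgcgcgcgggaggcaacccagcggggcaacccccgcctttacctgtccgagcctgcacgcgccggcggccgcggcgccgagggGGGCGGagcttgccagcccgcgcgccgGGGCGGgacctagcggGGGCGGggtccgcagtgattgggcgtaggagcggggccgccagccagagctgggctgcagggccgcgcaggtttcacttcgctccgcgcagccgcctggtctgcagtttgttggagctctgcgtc
The PMAIP1 window held 4 GC boxes and 1 cAMP half-site, whose first base lay at -56 from the start site. The BBC3 window held 1 AP-1 site at -113 and no GC box, at a GC content of 48% against 71.3% for PMAIP1 and a median of 58.7% over all 35116 windows. The BCL2L11 window held a FOXO element at -223 and 3 GC boxes, and also an antioxidant element (TGANNNNGC) at -60 that is not marked. The marked motifs differ between the windows, and each is one that matched there. No marked match overlapped another.

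The same motifs were counted over the 13 windows of 7 members for which RefSeq start sites were held, BIK being the other member. GC boxes were found in 10 of the 13 windows, in 6 of 7 members, against 45.0% of all windows and 66.3% of the 13125 windows of genes with an adjusted p. The cAMP half-site, chosen after the sequences were seen, was found in 3 of the 13 windows, of PMAIP1 and BAD, and in 7.98% of all windows or 10.4% of those of genes with an adjusted p. AP-1 sites were found in 1 of the 13 windows, that of BBC3, and in 7.71% of all windows or 4.76% of those of genes with an adjusted p. FOXO elements were found in 1 of the 13 windows, that of BCL2L11, and in 3.42% or 2.59%. An ATF4 element (TGATGNAA) was found in 1 of the 13 windows, that of HRK, and in 3.62% or 1.92%. The antioxidant element (TGANNNNGC) was found in 5 of the 13 windows, of BAD, BCL2L11, BMF and HRK, and in 41.8% or 42.3%. A STAT element (TTCNNNGAA) was found in 0 of the 13 windows and in 7.66% or 6.32%, and a p53 half-site in 0 of the 13 and in 6.63% or 5.48%. The p53 half-site was searched as its exact consensus without mismatches, so sites that deviate from it would be missed. These matches are descriptions of short windows, and windows of the same gene can overlap. The 2 windows of BAD held the same matches at shifted places, such as the cAMP half-site at -93 and at -54. Some windows of BID likewise held the same GC boxes. The 13 windows are thus not all separate sequences, and some sites were counted more than once. Sites elsewhere in the genes, such as introns, were not searched.

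PMAIP1 and BBC3 rose with S3I-201 and the other members with an adjusted p did not pass. Of 7 BH3-only genes with an adjusted p, 2 were higher, 0 were lower and 5 did not pass at 0.05, by the authors' DESeq2 test. Over all 11912 genes with an adjusted p, 4.45% were higher and 1.45% lower, or 5.90% in either direction. At an unadjusted p under 0.05 stood 2 of the 8 members, and 11.6% of the 16974 genes with a p-value. The median log2 fold change of the 7 was 0.13 and that of all tested genes -0.02. All 7 passed the authors' filter on low means, and BIK, at a mean normalized count of 1.24, did not.

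PMAIP1 encodes NOXA, a BH3-only protein that binds MCL1 and is known for promoting its degradation. PMAIP1 was listed in the authors' deposited table with a mean normalized count of 816 and a log2 fold change of 1.78 (3.44-fold, adjusted p = 1.22e-16). Its implied SE, the ratio of the log2 fold change to the normal quantile that its p-value stands for, was 0.20. With 3 libraries in each group, that mean and that fold would correspond to group means of 368 with DMSO and 1265 with S3I-201. PMAIP1 ranked 29th by fold change among the 703 genes that passed and 21st by p-value among all tested genes. Among the 199 genes nearest to it in mean normalized count, 1 had a fold change as large. PMAIP1 lies on chromosome 18 from 59899948 to 59904306 (GENCODE 29, GRCh38, whole gene), and no exon of another annotated gene overlapped its exons.

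BBC3 encodes PUMA, which binds all the main anti-apoptotic BCL2 proteins. BBC3 was listed in the authors' deposited table with a mean normalized count of 595 and a log2 fold change of 1.32 (2.50-fold, implied SE 0.26, adjusted p = 3.93e-05). That mean and fold would correspond to group means of 340 with DMSO and 850 with S3I-201. It ranked 73rd by fold change among the 703 genes that passed and 171st by p-value among all tested genes. Of the 199 genes nearest in mean normalized count, 0 had a fold change as large. BBC3 lies on chromosome 19 from 47220822 to 47232766 (GENCODE 29, GRCh38, whole gene), and the microRNA genes MIR3190 and MIR3191 share 80 and 76 of its 3180 exonic bases.

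The error of the BBC3 fold change was large for its abundance. Its implied SE of 0.26 exceeded that of 100% of the 199 genes nearest in mean, whose median was 0.16, while that of PMAIP1, 0.20, exceeded 89.9% of its neighbours with a median of 0.15. The implied SE of BID was above 12.1%, that of BCL2L11 above 46.7% and that of BAD above 60.8% of the neighbouring genes. Which libraries differed cannot be read from pooled values.

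**Figure D1:**
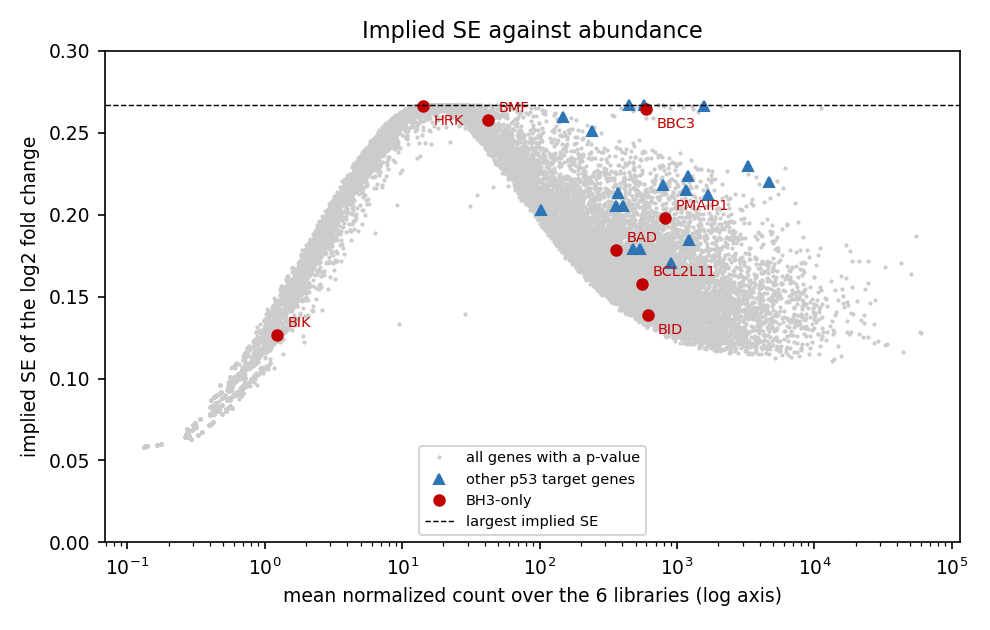
Implied SE of the deposited log2 fold change (vertical axis) against the mean normalized count over the 6 libraries (horizontal log axis). Grey points are all genes with a p-value, red circles the BH3-only genes, blue triangles the other p53 target genes, and the dashed line the largest implied SE, 0.267. BBC3 sits just under the line among genes of its abundance that are mostly near 0.16, and HRK and BMF sit under it at low means.

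Over all 16974 genes with a p-value the implied SE had a sharp upper limit. Its largest value was 0.267, both over all of them and among those with a p-value above 0.001, from which it was taken. Within 1% of it lay 688 genes, and the median was 0.27 at means of 10 to 20 but 0.07 at means under 1 and 0.15 at means of 1000 or more. A rise and fall with a fixed maximum is the form that the zero-centred normal prior of DESeq2 gives to shrunken fold changes, whose SE is largest where data and prior weigh alike. If that prior was used, its width on the log2 scale was 0.534 and each fold change can be returned to its unshrunken size, with the same p-value.

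On that assumption PMAIP1 had an unshrunken log2 fold change of 2.13 (SE 0.24, 95% interval 1.67 to 2.60), or 4.39-fold with an interval of 3.18 to 6.05. BBC3 had 2.33 (SE 0.47, 95% interval 1.42 to 3.24), or 5.02-fold with an interval of 2.67 to 9.44. Near the upper limit the equation has another solution of similar size, which for BBC3 was 3.07 (SE 0.61). PMAIP1 was thus above BBC3 as deposited and below it with shrinkage undone, and in both cases their 95% intervals overlapped. The difference between the genes was not tested, since both were measured in the same libraries and their covariance is not in pooled values. The group means that go with the unshrunken folds were 303 and 1330 for PMAIP1 and 198 and 992 for BBC3, with DMSO and S3I-201.

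**Figure D2:**
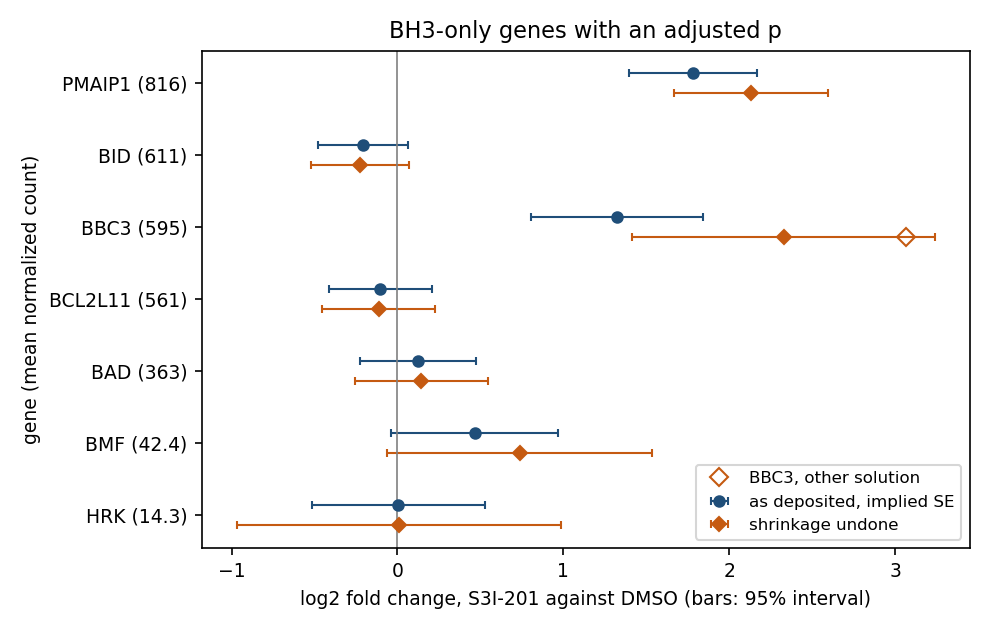
Log2 fold change (horizontal axis) of the 7 BH3-only genes with an adjusted p, ordered by mean normalized count, which is given in brackets. Blue circles are deposited values with 95% intervals from the implied SE, orange diamonds are values with the shrinkage undone and their 95% intervals, and the open diamond is the other solution for BBC3, 3.07. The intervals of PMAIP1 and BBC3 lie above 0 and those of the other 5 genes include 0.

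BCL2L11 encodes BIM, which binds the anti-apoptotic proteins broadly and can activate BAX and BAK. At a mean normalized count of 561, close to that of BBC3, the authors' deposited table gave BCL2L11 a log2 fold change of -0.10 (implied SE 0.16, adjusted p = 0.847). Its unshrunken 95% interval ran from -0.46 to 0.23, or from 0.730-fold to 1.17-fold, which leaves out changes of the size found for PMAIP1. In its exons 727 of 6658 bases are shared with the opposite-strand MIR4435-2HG, whose mean in the authors' deposited table was 0.554. BMF encodes a protein related to BIM that is known for binding the dynein light chain. For BMF the authors' deposited table held a log2 fold change of 0.47 at a mean of 42.4 (implied SE 0.26, adjusted p = 0.381). With the shrinkage undone BMF had 0.74 (95% interval -0.06 to 1.54), with another solution at 1.26, so that a change of up to 2.90-fold lay within the interval of the first.

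BID encodes the protein that caspase-8 cleaves to its active form and that links death receptors to mitochondria. For BID the authors' deposited table held a mean normalized count of 611 and a log2 fold change of -0.21 (implied SE 0.14, adjusted p = 0.525). Its unshrunken 95% interval ran from -0.52 to 0.07, or 0.698-fold to 1.05-fold, the narrowest among the members. BAD encodes a protein that survival kinases inactivate by phosphorylation. BAD was listed in the authors' deposited table at a mean of 363 with a log2 fold change of 0.13 (implied SE 0.18, adjusted p = 0.829). Its unshrunken 95% interval ran from -0.26 to 0.54. Of the 1708 exonic bases of BAD, 404 or 23.7% overlap the opposite-strand gene GPR137, whose mean was 482 in the authors' deposited table. The libraries do not mark the strand, so reads of the shared part cannot be told apart.

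HRK, or Harakiri, is known mainly from neurons, and BIK was found as a protein that interacts with BCL2 at the endoplasmic reticulum. HRK was listed in the authors' deposited table with a mean normalized count of 14.3 and a log2 fold change of 0.01 (adjusted p = 0.996). Its unshrunken 95% interval of -0.97 to 0.99 holds changes of nearly 1.98-fold in either direction, so that a moderate change was not detectable with an interval this wide. BIK was listed in the authors' deposited table with a mean normalized count of 1.24, a p-value of 0.624 and no adjusted p. Its deposited log2 fold change of 0.06 is mostly set by the shrinkage, and its unshrunken SE of 2.12 leaves the direction unknown.

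Per kilobase of exonic sequence, the level pooled over both groups was a mean normalized count of 365 per kb for PMAIP1, 213 for BAD, 187 for BBC3, 137 for BID and 84.3 for BCL2L11. Split by group with the fold changes of the authors' deposited table, the order in DMSO was BAD at 203 per kb, PMAIP1 at 165, BID at 147, BBC3 at 107 and BCL2L11 at 87.3. With S3I-201 it was PMAIP1 at 566, BBC3 at 267, BAD at 222, BID at 128 and BCL2L11 at 81.3 per kb. The order in DMSO depended on the shrinkage. With the shrinkage undone it was BAD at 202 per kb, BID at 148, PMAIP1 at 136, BCL2L11 at 87.6 and BBC3 at 62.2. The order with S3I-201 stayed the same. BMF at 7.79, HRK at 2.08 and BIK at 1.30 per kb had the lowest pooled levels. The lengths are unions of all exons in GENCODE 29, so genes with long alternative exons may be placed too low. With pooled values the spread of a level over libraries is not known. Neighbours in the pooled order such as BAD and BBC3, or in the orders by group, therefore cannot be ranked.

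**Figure D3:**
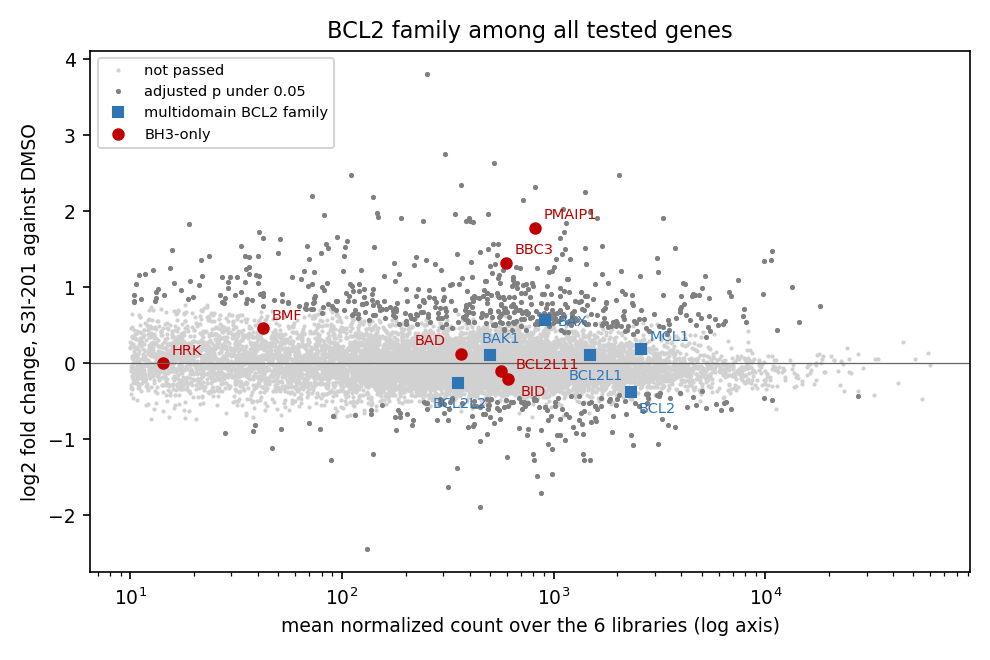
Log2 fold change (vertical axis) against mean normalized count (horizontal log axis) for all 11912 genes with an adjusted p, with dark grey points for genes that passed 0.05. Red circles are BH3-only genes and blue squares multidomain members of the BCL2 family. PMAIP1 at 1.78 and BBC3 at 1.32 stand above the other members, which lie between -0.38 and 0.57.

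Among genes for the proteins that BH3-only members bind, BAX rose. Of 4 anti-apoptotic genes with an adjusted p, 0 passed by the authors' DESeq2 test and 1 had an unadjusted p under 0.05, and their median log2 fold change of -0.08 was near that of all tested genes, -0.02. In the authors' deposited table BCL2 had a log2 fold change of -0.38 (adjusted p = 0.289) and BCL2L2, or BCL-w, one of -0.26 (adjusted p = 0.522). The authors' deposited table gave 0.18 for MCL1, the partner of NOXA (adjusted p = 0.686), and 0.10 for BCL2L1, which encodes BCL-XL (adjusted p = 0.794), both named with their values known. BCL2A1 and BCL2L10 had means of 0.681 and 1.54 and no adjusted p. Of the effectors in the authors' deposited table, BAX was higher with a log2 fold change of 0.57 (implied SE 0.16, adjusted p = 0.00979), BAK1 had 0.10 (adjusted p = 0.829) and BOK was listed at a mean of 0.

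Of 7 tested genes for other proteins with a BH3 or BH3-like motif, 1 was higher, 0 were lower and 6 did not pass, with a median of -0.03. BCL2L13, a mitochondrial membrane protein also called BCL-RAMBO, was higher in the authors' deposited table, with a log2 fold change of 0.65 (implied SE 0.13, adjusted p = 7.12e-05). BNIP3, a receptor for the removal of mitochondria, had -0.31 in the authors' deposited table, with an adjusted p of 0.408.

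Transcription factors known to act on BH3-only genes were higher in 4 of 11 tested, lower in 0, and did not pass in 7, with a median of 0.30. The authors' deposited table gave 1.86 for DDIT3, which encodes CHOP (adjusted p = 4.05e-19), and 0.89 for ATF4, its upstream factor in the integrated stress response (adjusted p = 2.54e-07). It gave 1.73 for ATF3 (adjusted p = 1.18e-08) and 1.50 for JUN, an AP-1 subunit (adjusted p = 1.46e-06). MYC, singled out with its values known, was listed in the authors' deposited table with -0.57 at a mean of 4679 and without a p-value.

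Other genes known as p53 targets were higher in 18 of 19 tested, lower in 0, and did not pass in 1, with a median log2 fold change of 1.11 against -0.02 over all tested genes. The list leaves out BBC3, PMAIP1 and BAX, which are p53 targets too. In the authors' deposited table CDKN1A, which encodes the cell cycle inhibitor p21, had a log2 fold change of 1.90 (adjusted p = 4.76e-14) and TP53INP1, a stress-induced p53 cofactor, one of 1.87 (adjusted p = 2.30e-11). The death receptor genes FAS and TNFRSF10B were listed in the authors' deposited table with 1.93 and 1.37, the stress protein gene SESN1 with 1.33 and the nuclease gene AEN with 1.17. TRIAP1, singled out with its values known, was the gene that did not pass, with 0.48 in the authors' deposited table and an adjusted p of 0.0941. Like BBC3 and PMAIP1, 18 of the 19 had an implied SE above the median of genes of like mean. This was not particular to p53 targets. It held for 7 of 8 tested targets of ATF4 and CHOP, 7 of 9 FOXO targets and 9 of the 11 transcription factors above. Among the mitochondrial and apoptosome genes it held for 5 of 15, and among those acting on BH3-only proteins after translation for 6 of 14.

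Of 8 tested genes among other targets of ATF4 and CHOP, 7 were higher, 0 were lower and 1 did not pass, and their median was 2.01. By the authors' deposited table the log2 fold change was 2.75 for CHAC1, 2.48 for TRIB3, 2.25 for SESN2, 2.03 for PPP1R15A, 1.99 for DDIT4 and 1.25 for ASNS, with adjusted p-values of at most 2.10e-10. They act in glutathione breakdown, kinase signalling, stress control of mTORC1, recovery of translation and asparagine synthesis. ERO1A, singled out with its values known, was the gene that did not pass. It was listed in the authors' deposited table with -0.20 at a mean of 824 (adjusted p = 0.558). TNFRSF10B belongs to this list as well as to the p53 targets, and PMAIP1 and BBC3 are known targets of both branches, whose parts in their values were not tested.

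Other FOXO target genes were higher in 3 of 9 tested, lower in 0, and did not pass in 6, with a median of 0.48. By the authors' deposited table these were KLF2 with a log2 fold change of 1.54, SESN1 with 1.33 and IRS2 with 0.89. BCL2L11 and BMF, the BH3-only genes linked to FOXO factors, did not pass, as given above.

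**Figure D4:**
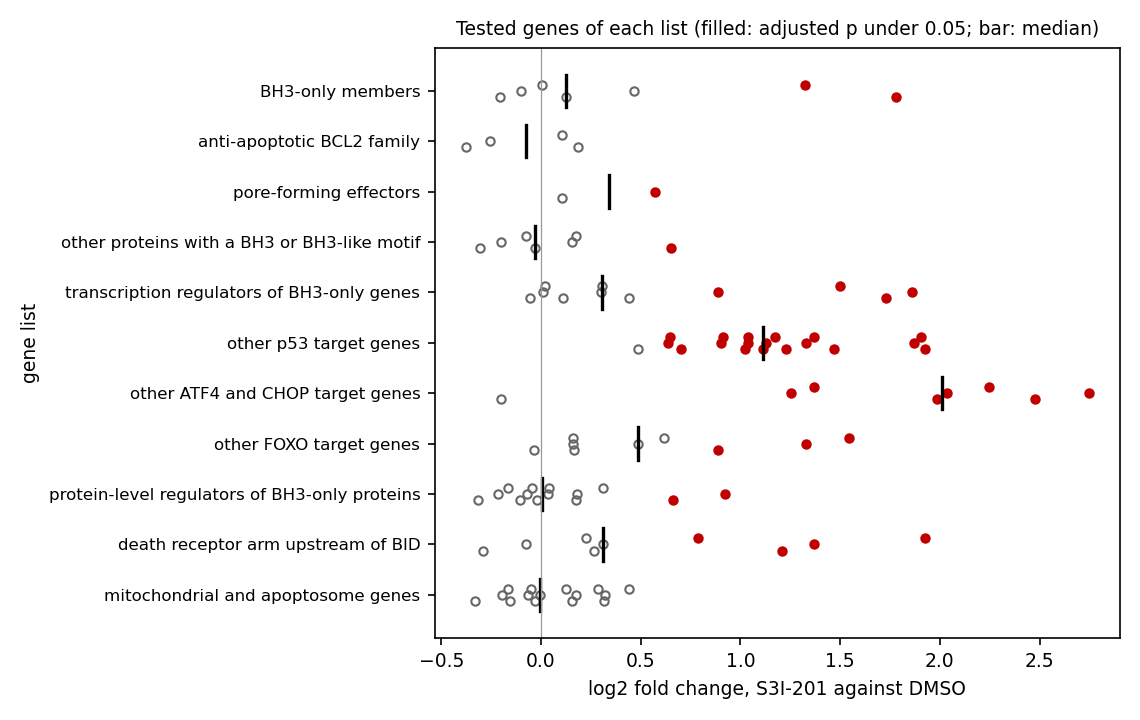
Log2 fold change (horizontal axis) of every gene with an adjusted p in the BH3-only group and in 10 related lists (vertical axis). Filled red circles passed an adjusted p of 0.05, open circles did not, and the black bar is the median of the list. Targets of p53 and of ATF4 and CHOP lie mostly right of 0, with medians of 1.11 and 2.01, and the mitochondrial and apoptosome genes lie around 0.

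Genes that act on BH3-only proteins after translation were higher in 2 of 14 tested and lower in 0, with a median of 0.01. By the authors' deposited table they were the kinases PIM1, with 0.92 (adjusted p = 0.00250), and PIM2, with 0.66 (adjusted p = 0.00327), both known to phosphorylate BAD. The death receptor arm that leads to BID had 4 of 9 tested genes higher and 0 lower, with a median of 0.31. All 4 were receptors, namely FAS, TNFRSF10B and, with log2 fold changes in the authors' deposited table of 0.79 and 1.21, TNFRSF1A and TNFRSF10A.

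At the mitochondrial membrane or downstream of it, 0 of 15 tested genes of the mitochondrial and apoptosome list passed by the authors' DESeq2 test. Of these, 2 had an unadjusted p under 0.05, and the median was -0.01. The authors' deposited table gave 0.44 for APAF1, the scaffold of the apoptosome (adjusted p = 0.240). The lists are descriptions beside the whole table and share 4 genes among them.

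The genes flanking the members that rose were also read, a step added with the values known. Among tested genes, those nearest to BBC3 on each side were SAE1, 10.2 kb away, and CCDC9, 23.8 kb away. In the authors' deposited table SAE1 had a log2 fold change of -0.05 (adjusted p = 0.936) and CCDC9 was higher with 0.72 (adjusted p = 0.00212). The nearest tested genes to PMAIP1 in the authors' deposited table were far away, LMAN1 by 541 kb with 0.53 (adjusted p = 0.0211) and RNF152 by 1904 kb with 0.55 (adjusted p = 0.244).

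The libraries held about 6600000 to 14500000 counts, estimated from size factors of 0.573 to 1.27 that the means of rarely detected genes revealed. All 8 tested B-precursor markers had means of 1041 or more, with DNTT at 13622, and 0 of 8 passed by the authors' DESeq2 test, with 2 at an unadjusted p under 0.05. Their median log2 fold change was -0.19, with 0 of 8 positive, and VPREB1 was listed at 0. Of markers of T and NK cells, CD3D, CD3E and CD2 were listed at 0, as were HBB of erythroid and COL1A2 and VWF of stromal and endothelial cells. Of the same lists NKG7 had a mean of 13.7, NCAM1 2.51, COL1A1 40.6 and PECAM1 1.09. The myeloid genes MPO, CSF1R, CD14 and LYZ had means of 978, 127, 6.93 and 2.17. Of the 4 tested markers of other cell types, 0 passed by the authors' DESeq2 test and 0 had an unadjusted p under 0.05.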

How the data were processed

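The deposited table holds 4 values per gene for 6 REH libraries, 3 with DMSO and 3 with S3I-201. Per the file headers, which use the column names of DESeq2, the mean normalized count is a signal that the authors averaged over all libraries after scaling by size factors. Also per the file headers, the log2 fold change is the authors' own, and it looks shrunken. The deposited p-value and adjusted p are the authors' too. Per the submitters' processing notes, hg38, bcl2fastq 2.19, Trimmomatic, Bowtie2, Picard, featureCounts and DESeq2 were used. The sources used here do not name the annotation, strand setting or model. The TruSeq RNA v2 kit does not mark strand.

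The planned count test needs values per library, and the deposited adjusted p was used in its place, called at 0.05. Of the 26364 genes, 9307 had a mean of 0, 83 a fold change and no p-value, and 5062 a p-value and no adjusted p. Every adjusted p belonged to a gene with a mean of at least 10.0. Implied SEs divide the absolute log2 fold change by the quantile of the p-value, and intervals cover 95%. P-values set a fold change against its SE, which depends on the spread between these libraries. Shrinkage was undone in Python 3.11.15 with scipy 1.17.1 from the largest implied SE, an alternative added after seeing the data, taking the solution with more information except for BIK. This step and the adjustment were tested on simulated negative binomial counts with changed and unchanged genes, fitted with and without such a prior. Near the largest implied SE the solution taken was at times the wrong one. BBC3, HRK and BMF lie near it, so their unshrunken values are uncertain beyond their SE. The simulated spread between libraries was set by the mean and given to the fit. At the mean of BBC3 it was smaller than the SE of BBC3 calls for. How well shrinkage is undone for a gene like BBC3 was therefore not tested. Neighbours by abundance were the 100 tested genes on each side of a mean. Size factors came from the 6 commonest means under 0.4, those of single reads, and sums of these steps explained 100% of 2067 means under 0.6 within 1e-07.

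Named by rule were all members and, of each list, up to 6 genes that passed by adjusted p, or the 2 smallest adjusted p where fewer than 2 passed. A few genes are left out of the text here. With 1 pooled comparison no genes of like pattern could be named. Members and lists, which come from textbook knowledge, were chosen with earlier results of these data known. The alternatives changed the threshold (0.1, 0.01), asked for a minimum fold, adjusted over all p-values, or used removal of the median fold change over all genes or in 20 abundance bins. Protein sequences were not used here.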

Additional observations from a re-analysis of the deposited data

How the results depend on the processing

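The count of 2 BH3-only genes higher was the same in number, PMAIP1 and BBC3 each time, at adjusted p thresholds of 0.1 and 0.01, with a minimum log2 fold change of 1, with adjustment over all p-values and with the median or the abundance trend removed. Undoing the shrinkage keeps every p-value by construction and so tests no call. The thresholds and the minimum fold only reread the deposited values. The smallest adjusted p among the other members was 0.381 for BMF, by the authors' DESeq2 test, so that these outcomes followed from the main result. The remaining settings reused the same p-values or implied SEs. BBC3 had adjusted p-values of 2.53e-05 to 5.60e-05 over the recomputed alternatives and PMAIP1 1.06e-17 to 1.75e-16. HRK, which did not pass in any of them, moved from 0.01 to -0.06 on the log2 scale when the abundance trend was removed. Over all tested genes 442 passed at 0.01 (363 higher, 79 lower) and 178 with the minimum fold (156 higher, 22 lower), against 703. The minimum fold, applied to deposited values, left out, among others, BAX, BCL2L13, PIM1 and PIM2. Leaving out libraries, other normalizations and other count filters were not run, since they need values per library. No paired analysis was possible because the pooled table has no columns that carry replicate numbers. BIK and HRK, at means of 1.24 and 14.3, had unshrunken SEs of 2.12 and 0.50, and how much of these is depth was not tested.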

Other observations

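BID and BCL2L13 are neighbours on chromosome 22, with a gap of 3.28 kb between them, and both belong to the wider BCL2 family. In the authors' deposited table BCL2L13 was higher, with a log2 fold change of 0.65 (adjusted p = 7.12e-05), and BID had -0.21 (adjusted p = 0.525). The difference between them was not tested. Among the nearest tested genes on either side of BCL2L11 and BMF are BUB1 and BUB1B, both genes of the spindle checkpoint, at 441 kb and 52.2 kb. Untested genes may lie between. Both were lower in the authors' deposited table, BUB1 with -0.92 (adjusted p = 0.000452) and BUB1B with -0.80 (adjusted p = 0.0117). Of the 16 flanking genes of the 8 members, these 3, CCDC9 and LMAN1 passed, all named with their values known. Over all tested genes 5.90% passed, and whether flanking genes passed more often was not tested. VDAC1, the mitochondrial outer membrane channel, was listed in the authors' deposited table with -0.27 and without a p-value.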
